A study of Mus musculus with 2 samples.

Results

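The stress keratins Krt6a, Krt6b, Krt16 and Krt17 were followed as 4 named genes, out of 18595 in the table, through single cells of the mouse esophagus. Their levels were read in the 5 clusters numbered 4, 9, 13, 14 and 15, which the authors' deposited annotation calls epithelial and which held 678 cells of the 2472 in the control library and 341 of the 2381 in the Keap1 cKO library. Red blood cells (cluster 7, 178 and 120 cells), which make no keratin, gave the level of free RNA in the droplets. The control library came from Keap1 floxB/floxB mice, and the Keap1 cKO library from K5CreERT2::Keap1 floxB/floxB mice. K5CreERT2 is a tamoxifen-activated Cre recombinase driven by the keratin 5 promoter, so it is made in basal cells of stratified epithelia, and both groups carry the floxed Keap1 alleles. All mice were hybrids of C57BL/6J and BALB/c. Age, inducing dose, time after induction and the number of animals in a library are unknown here.

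Keratins are the intermediate filament proteins of epithelia, and a filament is built from pairs of 1 acidic type I and 1 basic type II chain. Krt6a and Krt6b are type II keratins, and Krt16 and Krt17 are type I keratins that pair with them. In stratified epithelia these 4 are known as stress or wound keratins, because keratinocytes induce them after injury and in hyperproliferation, beside the keratins of normal basal (Krt5, Krt14, Krt15) and suprabasal (Krt4, Krt13) layers. KEAP1 binds NRF2, a transcription factor of the oxidative stress response, and targets it for breakdown.

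On mm10, all 4 genes are protein coding and lie on the minus strand in 2 keratin gene clusters. Krt6b (chromosome 15, 101676023 to 101680287) and Krt6a (chromosome 15, 101689910 to 101694307) are neighbours near Krt5. Krt16 (chromosome 11, 100246091 to 100248902) and Krt17 (chromosome 11, 100256217 to 100261029) are neighbours near Krt14. The Krt6a and Krt6b transcripts are much alike: 49.5% of the 50-base windows of Krt6a and 50.1% of those of Krt6b also occur in another gene's transcript. In the last 500 bases, next to which 3′ tags are read, 0 of 451 windows of either gene were shared. For Krt16 16.9% and for Krt17 9.53% of the windows in the last 500 bases were shared, in part between them and with Krt14, so a part of their counts is uncertain; the sources used here do not say how reads that match several genes were treated.

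Each value is a count of unique molecular identifiers (UMIs, 1 per captured RNA molecule) summed over the cells of a cluster and given per 1000000 UMIs of those cells (CPM). UMIs count molecules, so levels of different genes are compared without division by length. There was 1 library per genotype, so no test was made; brackets give exact 95% intervals that cover counting error only, with none of the variation between animals. Cluster sums ranged from 303489 to 6496387 UMIs. Median depth per cell was 20487 and 26254 UMIs in cluster 4 (control and Keap1 cKO), 1441.5 and 2456.5 in cluster 9, 28122 and 43123 in cluster 13, 3547.5 and 27848 in cluster 14, and 20225 and 35859 in cluster 15. Keap1 itself had 940 UMIs (70.0 CPM) in the control and 330 (44.8 CPM) in the Keap1 cKO library over the 5 clusters, a log2 ratio of -0.65 (-0.83 to -0.46); the sources used here do not say whether the tagged end lies inside the deleted part. The libraries shared 5 cell barcodes, 4 of them in the 5 clusters.

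The cluster labels were checked against fixed marker lists. Cluster 4 was basal keratinocyte-like: all 7 basal markers were seen, at a summed 17537 CPM in the control and 13189 in the Keap1 cKO library, and Col17a1, Lama3 and Lamb3 were among its 10 leading genes. Cluster 13 was suprabasal keratinocyte-like (43405 and 27713 CPM of suprabasal markers; Dsg1a among its leading genes). Cluster 9 was cornified keratinocyte-like (5502 and 6271 CPM of cornified markers, beside 94350 and 21878 CPM of suprabasal ones). It was led by Lce3 genes together with the immune genes Defb4 and Il1f6. Of the 7 cornified markers in the table, its control cells showed 4, with Crnn, Ivl and Lce3d not seen. Its Keap1 cKO cells showed 6, with Crnn not seen. Lce3d, a leading gene of the cluster, was thus seen in its Keap1 cKO cells only. Control cells of cluster 14 had a similar cornified sum (4599 CPM), so the name is less sure for the control cells of cluster 9. Cluster 15 was dividing cell-like (2202 and 1911 CPM), and its 7 Keap1 cKO cells carry little weight. Cluster 14 stays unnamed: its leading genes (Cyp2a5, Psca, Krt19, Muc5b) belong to none of the keratinocyte lists, and its cells differed between libraries in other ways given below. No stress keratin was among the 10 leading genes of any of the 5 clusters.

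With all cells counted, the 4 stress keratins were each at least 2-fold higher in Keap1 cKO cells in clusters 4, 9 and 13. For Krt17 in cluster 4, only 6 and 11 cells had few UMIs of other cell types' markers. Their 6 and 2 Krt17 UMIs (log2 ratio 0.32) are too few to decide whether this holds there. Among all genes with 20 or more UMIs in the 2 libraries together, 9.94% were at least 2-fold higher in cluster 4; the shares were 12.3% for cluster 9 and 7.04% for cluster 13. In these 3 clusters none of the 4 was lower; in cluster 4, for instance, 8.96% of genes were at least 2-fold lower. In cluster 14 none of the 4 passed 2-fold in either direction, where 16.8% of genes were higher and 3.67% lower. In cluster 15 both members with at least 20 UMIs, Krt6a and Krt17, passed 2-fold, against 7.69% of genes. Summed over the 4 genes, the level went from 173.6 to 15964 CPM in cluster 9 (log2 ratio 6.52, 6.20 to 6.87), from 436.1 to 7318 CPM in cluster 13 (4.07, 4.0 to 4.14) and from 282.8 to 1615 CPM in cluster 4 (2.51, 2.43 to 2.59). Cluster 15 stood at 191.7 and 1117 CPM (2.54, 2.32 to 2.77), and cluster 14 at 3221 and 3556 CPM (0.14, 0.07 to 0.22). The order of the clusters thus differed between libraries: cluster 14 was highest and cluster 9 lowest in the control, and cluster 9 was highest and cluster 15 lowest in the Keap1 cKO library. Only the neighbours 9 (137.0 to 217.0 CPM) and 15 (171.0 to 214.3 CPM) of the control had overlapping intervals.

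**Figure D1:**
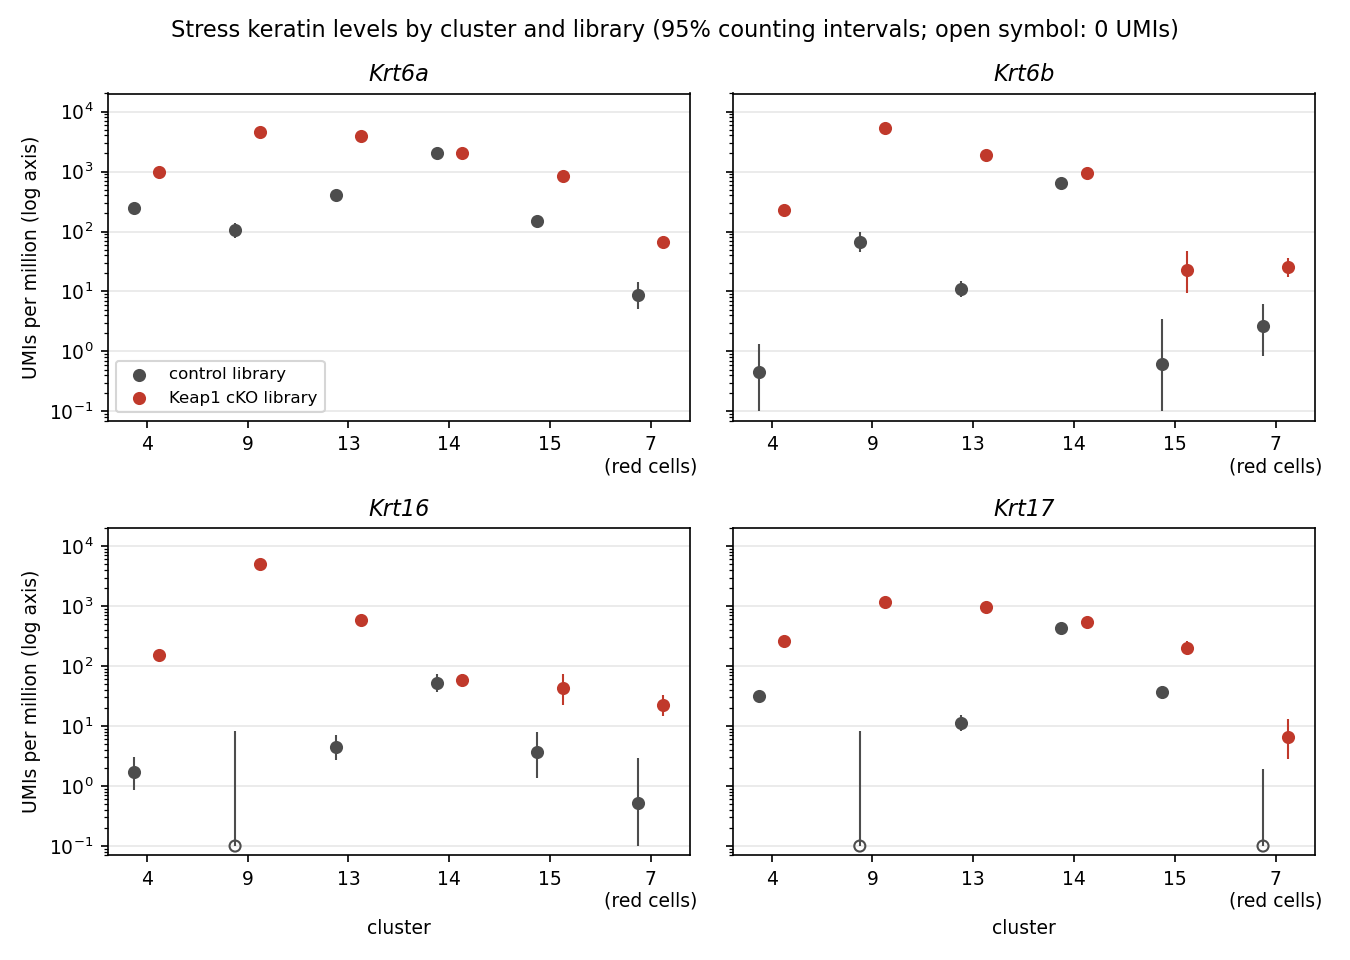
Level of each stress keratin (vertical log axis, CPM) in the 5 epithelial clusters and in red cells (horizontal axis), in the control library (grey) and the Keap1 cKO library (red); points are sums over cells, lines are 95% counting intervals and open symbols mark 0 UMIs. In clusters 4, 9 and 13 each red point lies above its grey point, while in cluster 14 the pairs lie close together.

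Of the type II genes, Krt6a was the stress keratin with most UMIs in every cluster of the control library. It had 1618 UMIs (249.1 CPM) in control and 2552 (976.7 CPM) in Keap1 cKO cells of cluster 4, a log2 ratio of 1.97 (1.88 to 2.06). In cluster 13 it had 1719 (409.0 CPM) and 9424 UMIs (3894 CPM), a log2 ratio of 3.25 (3.18 to 3.33). In cluster 9 it had 47 (106.0 CPM) and 4499 UMIs (4610.5 CPM), a ratio of 5.44 (5.03 to 5.89), which was 4.75 from 28 and 630 UMIs without mixed cells. Mixed cells are those with at least 2 UMIs of another cell type's markers or 10 of the erythroid ones. This bound does not scale with depth. The 11 Keap1 cKO cells left in cluster 4 held 16238 UMIs together, fewer than the median cell there (26254). With all cells the Krt6a ratio was smallest in the basal-like cells, larger in the suprabasal-like cells and largest in the cornified-like cells, and these 3 intervals did not overlap. In cluster 15 it had 244 (150.9 CPM) and 258 UMIs (850.1 CPM), a ratio of 2.49 (2.24 to 2.75); 1 Keap1 cKO cell held 142 of the 258, and without it the ratio was 1.70.

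Krt6b, which shares its pairing partners with Krt6a, was near 0 in control basal-like cells. In cluster 4 there were 3 UMIs (0.46 CPM) in 313 control cells and 597 (228.5 CPM) in 93 Keap1 cKO cells, a 495-fold ratio (log2 8.95, 7.40 to 11.23). The control level is not above the 2.61 CPM of control red cells. A single Keap1 cKO cell held 261 of the 597 UMIs, and without it the ratio was 290-fold (log2 8.18). Without mixed cells, 6 control cells held 0 and 11 Keap1 cKO cells held 4 Krt6b UMIs, a log2 ratio of 2.32 against a floor of 3 counts. In cluster 13 Krt6b went from 47 (11.2 CPM) to 4541 UMIs (1876 CPM), a log2 ratio of 7.39 (6.98 to 7.84). In cluster 9 it went from 30 (67.6 CPM) to 5092 UMIs (5218 CPM), a ratio of 6.27 (5.75 to 6.84), or 6.90 without the control cell that held 11 of the 30 UMIs; without mixed cells it had 23 and 619 UMIs, a ratio of 5.01. In the Keap1 cKO library Krt6b had more UMIs than Krt6a in this cluster, which was not so in the other 4. In cluster 15 Krt6b had 1 and 7 UMIs; its 23.1 CPM in Keap1 cKO cells was not above the 25.6 CPM of the red cells of that library.

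Krt16, the type I partner most tied to hyperproliferation, had few UMIs in the control: 71 in all 678 cells. In cluster 9 it had 0 UMIs in 114 control cells and 4857 (4977 CPM) in 140 Keap1 cKO cells, a level at least 736-fold higher if the control is set to a floor of 3 counts for the whole group. This was the highest ratio of the 4713 genes tested in that cluster. In its 87 and 63 cells left without mixed cells Krt16 had 0 and 303 UMIs, and the log2 bound fell from 9.52 to 6.92. In cluster 13 it had 19 (4.52 CPM) and 1434 UMIs (592.5 CPM), a log2 ratio of 7.03 (6.39 to 7.77), and 7.69 without the control cell with 7 of the 19 UMIs. In cluster 4 it had 11 (1.69 CPM) and 398 UMIs (152.3 CPM), a ratio of 6.49 (5.64 to 7.51). There 1 Keap1 cKO cell, with 100520 UMIs the deepest cell of the table, held 215 of the 398; without it the ratio was 5.43, and without the control cell with 4 of the 11 UMIs it was 7.14. Without mixed cells it had 0 and 1 UMIs there, too few for a ratio. Krt16 was thus high in many cornified-like cells and rested on few cells in cluster 4. In cluster 15 it had 6 (3.71 CPM) and 13 UMIs (42.8 CPM), under the minimum of 20, and red cells stood at 22.3 CPM.

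Krt17, the other type I gene, had more control UMIs than Krt16 in each of the 5 clusters where either was seen. In cluster 4 it had 205 (31.6 CPM) and 673 UMIs (257.6 CPM), a log2 ratio of 3.03 (2.80 to 3.26). In the 6 and 11 cells left without mixed cells it had 6 and 2 UMIs, too few to decide, and a ratio of 0.32. In cluster 9 it had 0 UMIs in the control and 1130 (1158 CPM) in Keap1 cKO cells, which was at least 171-fold higher with the same floor, the fifth highest ratio there; without mixed cells it had 0 and 72 UMIs, and the log2 bound fell from 7.42 to 4.85. In cluster 13 it had 48 (11.4 CPM) and 2313 UMIs (955.6 CPM), an 83.7-fold ratio (log2 6.39, 5.98 to 6.83). This value depends on 1 Keap1 cKO cell that held 1547 of the 2313 UMIs (66.9%): without it the ratio was 28.2-fold (log2 4.82, 4.4 to 5.27), and without the control cell that held 24 of the 48 it was 167-fold. In cluster 15 Krt17 had 59 (36.5 CPM) and 61 UMIs (201.0 CPM), a log2 ratio of 2.46 (1.92 to 3.0).

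Cluster 14 stood apart in having high stress keratins in both libraries. Krt6a had 1370 (2076 CPM) and 2128 UMIs (2008 CPM), a log2 ratio of -0.05 (-0.15 to 0.05). Krt6b had 431 (653.1 CPM) and 1005 (948.3 CPM), a ratio of 0.54 (0.37 to 0.70). Krt16 had 35 and 62 UMIs and a ratio of 0.14 (-0.48 to 0.78), and Krt17 had 290 and 574 and a ratio of 0.30 (0.10 to 0.51). The median ratio of all genes tested in this cluster was 0.32, so none of the 4 lay far from it. Single cells decided these values: 1 Keap1 cKO cell with 62794 UMIs held 919 of the Krt6a, 735 of the Krt6b and 38 of the Krt16 UMIs, and without it the 3 ratios were -0.78, -1.27 and -1.14. Krt17 had 248 of its 290 control UMIs in 1 cell and 399 of its 574 Keap1 cKO UMIs in another, with ratios of 3.01 and -1.37 when the one or the other was left out; leaving out the control cell with 17 of the 35 Krt16 UMIs gave 0.98. The cells of this cluster also differed in depth (above) and in other markers: of the gastric markers in the table Tff1 and Tff2 were seen and Muc6 was at 0, with sums of 36.4 and 1732 CPM, and the myeloid sum was 95.5 and 2547 CPM. Their part in the result was not tested.

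Outside the epithelium the 4 genes were seen at a low level that was higher in the Keap1 cKO library. Over the non-epithelial clusters with at least 50 cells (8 in the control, 10 in the Keap1 cKO library), Krt6a ranged from 5.63 to 45.6 CPM in the control and from 62.8 to 134.1 CPM in the Keap1 cKO library. Krt6b ranged from 0 to 3.12 and from 25.6 to 87.1 CPM, Krt16 from 0 to 1.88 and from 22.3 to 96.5 CPM, and Krt17 from 0 to 4.35 and from 6.61 to 26.8 CPM. Red cells, where the erythroid markers stood at 936828 CPM in the control, held 0.129 stress keratin UMIs per cell in the control and 1.23 in the Keap1 cKO library, or 12.0 and 121.5 CPM. This gap has the same direction as that of the epithelial clusters. Most epithelial levels lay above it, with exceptions. Keap1 cKO cells held 228.9 times as much Krt6a per cell as red cells in cluster 13, 47.6 times in cluster 9 and 40.7 times in cluster 4. The lowest such ratios over the 4 genes were 3.87 for Krt6b in cluster 15 and 6.89 for Krt16 in cluster 14. In CPM the Keap1 cKO level was 0.90 times that of red cells for Krt6b in cluster 15, and 2.62 and 1.92 times for Krt16 in clusters 14 and 15. In the control, Krt6b in clusters 4 and 15 was below red cells on both scales, and Krt16 and Krt17 had 0 UMIs in cluster 9.

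The share of cells with a UMI was compared after each cell had been thinned to 700 UMIs, which left out 41 control and 11 Keap1 cKO cells that were shallower. At this depth 118 of 637 control cells (18.5%, 15.6 to 21.8, Clopper-Pearson) and 249 of 330 Keap1 cKO cells (75.5%, 70.4 to 80.0) held a UMI of any of the 4 genes. Among red cells the counts were 0 of 178, which allows a share of up to 1.69% (3 counts of 178; 2.05% by Clopper-Pearson), and 10 of 120 (8.33%). In T cells of cluster 3 they were 2 of 59 (3.39%) and 56 of 377 (14.9%). The epithelial share at this depth exceeded that of either cell type that should lack these genes, in both libraries. Red cells had median depths of 10831 and 10271.5 UMIs (control and Keap1 cKO), with erythroid markers at 936828 and 932761 CPM. Thinning to 700 UMIs therefore took away most of their free RNA, so their low share is a weak check on it. Without thinning the epithelial shares were 67.0% and 95.9%. No UMI of the 4 genes was then held by 161 of 178 control red cells (90.4%) and 44 of 120 Keap1 cKO red cells (36.7%).

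By cluster, the thinned share for any of the 4 genes was 16.3% in control and 44.0% in Keap1 cKO cells of cluster 4, 13.95% and 97.7% in cluster 9, and 23.9% and 91.8% in cluster 13. It was 58.6% and 52.5% in cluster 14, whose intervals overlapped, and 8.0% and 57.1% in cluster 15, the last from 4 of 7 cells. In cluster 9 the members ranked Krt6a (86.3% of Keap1 cKO cells), Krt6b (79.4%), Krt16 (67.9%) and Krt17 (26.0%). In cluster 13 the order was the same, at 82.0%, 59.0%, 24.6% and 14.8%. In cluster 4 it was Krt6a at 23.1%, Krt17 at 14.3%, and Krt6b and Krt16 at 7.69% each. Krt6a was also found in 14.7% of control cells there, and its interval (11.0 to 19.1) overlapped that of the Keap1 cKO cells (14.9 to 33.1).

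**Figure D2:**
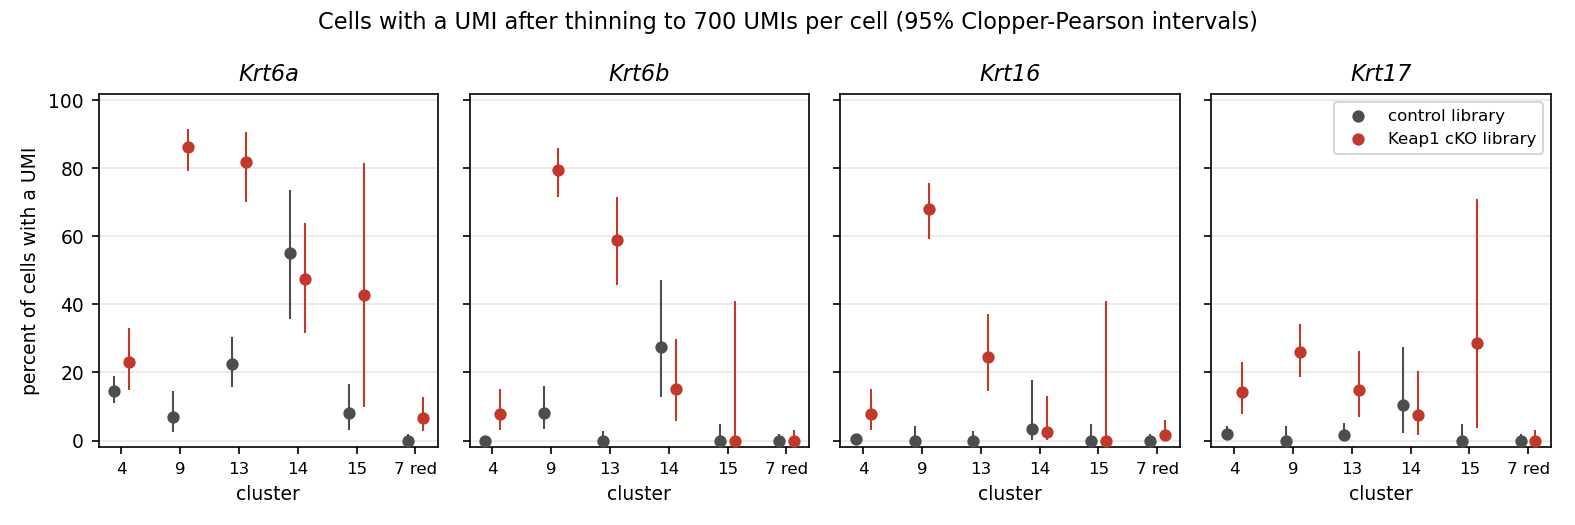
Percent of cells with at least 1 UMI of each gene (vertical axis) by cluster (horizontal axis, red cells last), after every cell was thinned to 700 UMIs, in the control library (grey) and the Keap1 cKO library (red); lines are 95% Clopper-Pearson intervals. Cluster 9 of the Keap1 cKO library has the highest share for Krt6a, Krt6b and Krt16, and red cells reach 6.67% for Krt6a.

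Per cell, the 4 genes together made up a median of 1.29% of all UMIs in Keap1 cKO cells of cluster 9, against 0 in the control. In cluster 13 the medians were 0.531% and 0.015%, and in cluster 4 they were 0.051% and 0.0094%. Set against the 95th percentile of control cells in the same cluster, 137 of 140 Keap1 cKO cells (97.9%) lay above it in cluster 9, 49 of 61 (80.3%) in cluster 13 and 23 of 93 (24.7%) in cluster 4. Few cells lay within 20% of that bound: 4 for cluster 9, 8 for cluster 13 and 3 for cluster 4. Cells of cluster 4 with no UMI of the 4 genes numbered 83 of 313 (26.5%) in the control and 11 of 93 (11.8%) in the Keap1 cKO library. In cluster 14 the median was 0.155% in the control and 0.086% in the Keap1 cKO library, the reverse of the order of the sums, and 3 of 40 cells lay above the bound.

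The UMIs were unevenly spread over cells. In cluster 4, 5 of 93 Keap1 cKO cells held 50% of the stress keratin UMIs, against 12 of 140 in cluster 9 and 9 of 61 in cluster 13. In those 5 cells the suprabasal markers summed to 15482 CPM and Krt13 to 8623 CPM, while the other 88 cells stood at 3011 and 1313 CPM. Their basal marker sum was close to that of the others (12485 and 13296 CPM), and their median depth was 63410 against 23658 UMIs, a difference that choosing cells by UMI count favours. The other 88 cells had 532.1 CPM of Krt6a, 85.2 of Krt6b, 60.4 of Krt16 and 243.5 of Krt17. Each of these was above the control level of the cluster. The Krt6b and Krt16 values lay within the range of the non-epithelial clusters of the Keap1 cKO library (25.6 to 87.1 and 22.3 to 96.5 CPM). Those of Krt6a and Krt17 lay above it (highest 134.1 and 26.8 CPM).

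**Figure D3:**
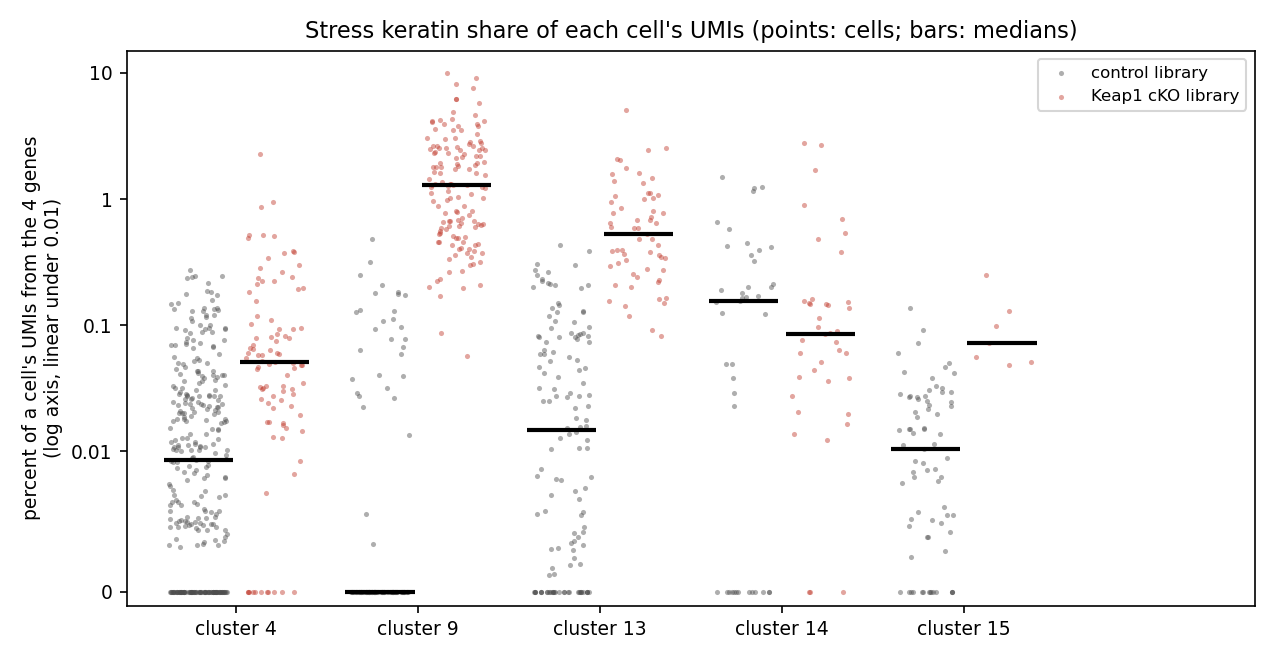
Share of a cell's UMIs, in percent, taken by the 4 stress keratins (vertical axis, logarithmic above 0.01 and linear below) in each cluster (horizontal axis) for control cells (grey) and Keap1 cKO cells (red); each point is a cell and black bars are medians. In cluster 9 the median moves from 0 to 1.29%, in cluster 4 most cells of both libraries share a range, and in cluster 14 the Keap1 cKO median is the lower one.

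Type II and type I members were not seen in equal amounts. The type I share of stress keratin UMIs over the 5 clusters was 673 of 6183 in the control (10.9%, 10.1 to 11.7) and 11515 of 41618 in the Keap1 cKO library (27.7%, 27.2 to 28.1). It went from 0 of 77 UMIs (an upper limit of 4.68%) to 38.4% in cluster 9, from 3.66% to 21.2% in cluster 13 and from 11.8% to 25.4% in cluster 4. It was 15.3% and 16.9% in cluster 14, and 21.0% and 21.8% in cluster 15, with overlapping intervals in both. Type II RNA exceeded type I RNA in every one of these sums. The excess was smaller in the Keap1 cKO library in clusters 4, 9 and 13, where every member was higher in that library. Every member was also higher in cluster 15, where the type I share hardly differed. The log2 ratios there were 2.49 for Krt6a, 5.22 for Krt6b, 3.53 for Krt16 and 2.46 for Krt17. Those of Krt6b and Krt16 rest on few UMIs, at 0.90 and 1.92 times the red cell CPM of the Keap1 cKO library. With 7 Keap1 cKO cells, cluster 15 cannot decide whether higher members go with a smaller excess.

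The make-up within each type was read too. Krt6b made up 0.19% of the Krt6a and Krt6b UMIs in control cells of cluster 4 and 18.96% in Keap1 cKO cells. The same share was 2.66% and 32.5% in cluster 13, 39.0% and 53.1% in cluster 9, and 23.9% and 32.1% in cluster 14. In cluster 14 the share of Keap1 cKO cells was 18.3%, below the control, without the cell that held 735 of the 1005 Krt6b UMIs. On the type I side Krt17 was the main gene in 4 clusters of both libraries, with 94.9% and 62.8% of the Krt16 and Krt17 UMIs in cluster 4 and 71.6% and 61.7% in cluster 13. Cluster 9 of the Keap1 cKO library differed: Krt17 was only 18.9% there and Krt16 the rest. Without the cell that held 1547 Krt17 UMIs, Krt17 was 766 UMIs or 35.9% of the type I stress keratins of cluster 13, and the type I share there was 13.8% in place of 21.2%. Without the deepest stress keratin cell of cluster 14, which held 919 of its Krt6a UMIs, the type I share of its Keap1 cKO cells was 28.7%.

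**Figure D4:**
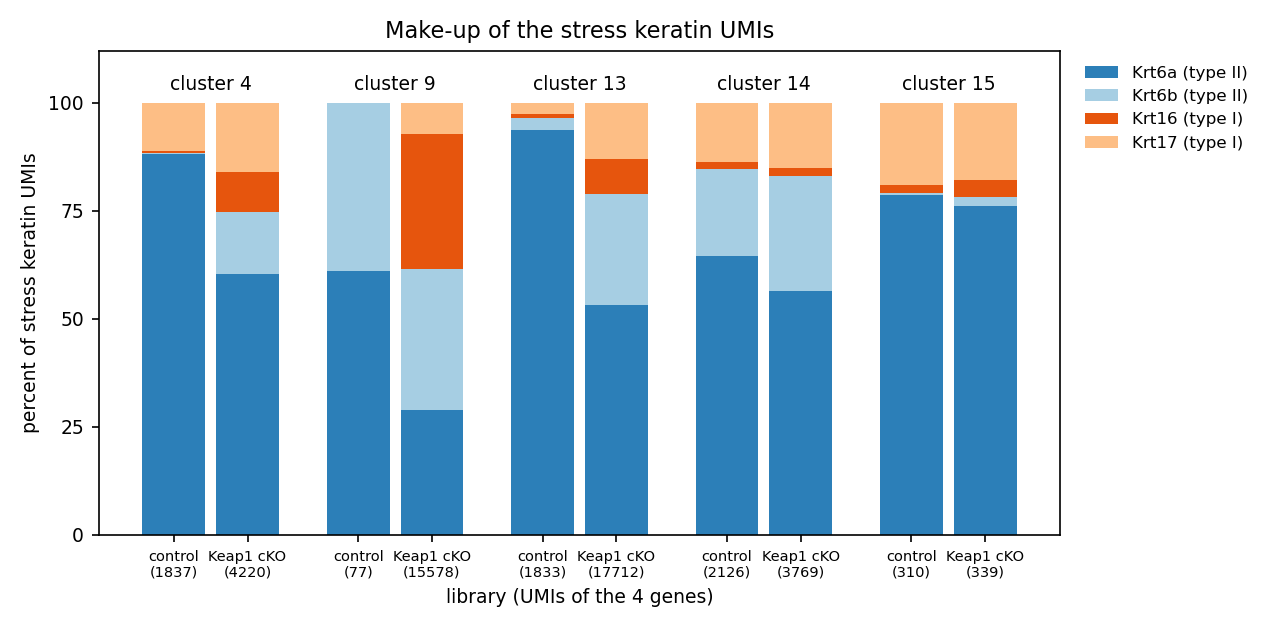
Make-up of the stress keratin UMIs in percent (vertical axis) in each cluster and library (horizontal axis, with the number of UMIs of the 4 genes in brackets); blue bars are type II and orange bars are type I genes. Krt6a leads in every control bar, and Krt16 takes 31.2% of the Keap1 cKO bar of cluster 9.

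Set within the whole keratin pool of 16 type II and 22 type I genes in the table, the stress keratins went from 0.239% to 49.3% of keratin UMIs in cluster 9. In cluster 13 they went from 1.04% to 19.7%, in cluster 4 from 1.22% to 9.59%, in cluster 15 from 1.04% to 7.25% and in cluster 14 from 5.25% to 9.28%. The pool itself was smaller in the Keap1 cKO library in all 5 clusters, with 72559 against 32408 CPM in cluster 9 and 23240.0 against 16840.4 CPM in cluster 4. Krt13 and Krt4, the suprabasal pair, were the most abundant keratins of control cluster 9 and were lower in the Keap1 cKO library: Krt13 had 40523 and 9141 CPM (log2 ratio -2.15) and Krt4 had 28451 and 2645 CPM (-3.43). In that cluster the stress genes were 75.2% of type II and 31.7% of type I UMIs in the Keap1 cKO library, against 0.596% and 0 in the control. The type I share of all keratin UMIs was 59.9% and 59.6% there, and 62.7% and 63.0% in cluster 14, with overlapping intervals in both. It was lower in the Keap1 cKO library elsewhere: 75.9% and 62.4% in cluster 4, 67.0% and 57.2% in cluster 13, and 73.98% and 61.1% in cluster 15.

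**Figure D5:**
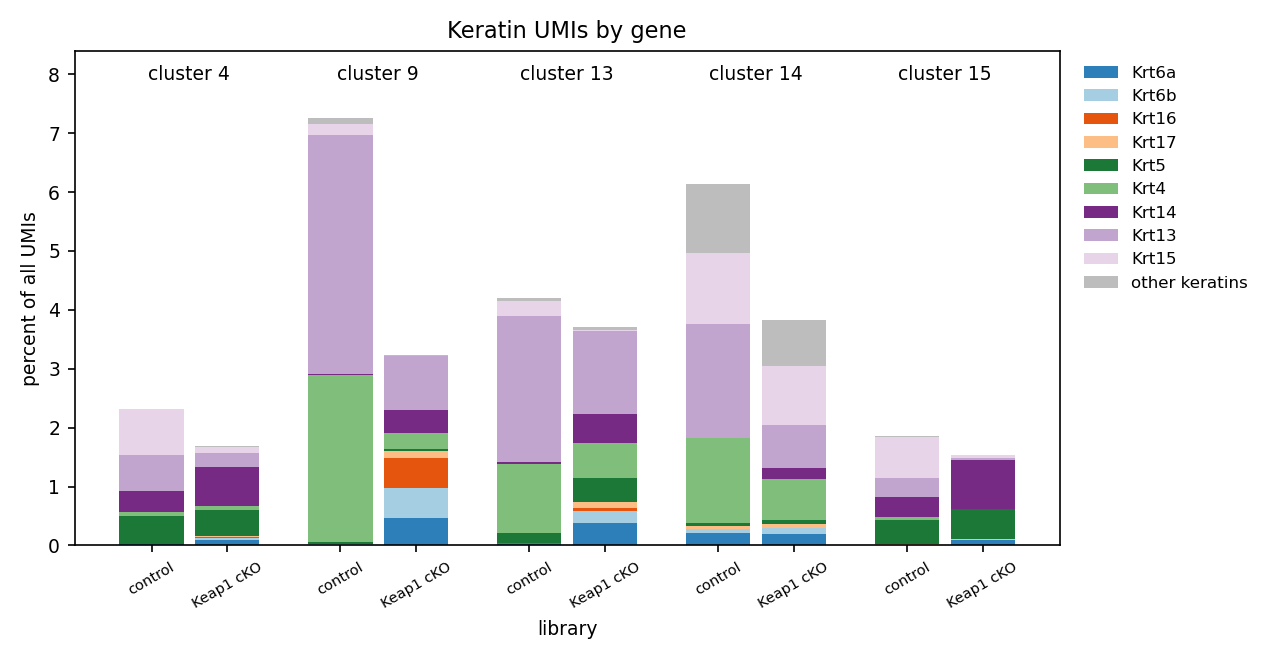
Keratin UMIs as percent of all UMIs (vertical axis), split by gene, for each cluster and library (horizontal axis). The 4 stress keratins at the foot of each bar are visible in the Keap1 cKO bars of clusters 9 and 13, while the Krt4 and Krt13 parts of the cluster 9 bar are smaller than in the control.

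The stress keratins were not the only keratins to differ. Of 9 other type II keratins that reached 20 UMIs in the 5 clusters, 2 were at least 2-fold higher and 1 lower, and of 9 other type I keratins 4 were higher and 3 lower. Over all genes 10.3% were at least 2-fold higher and 6.93% lower. The median log2 ratio was -0.02 for the type II list and -0.22 for the type I list, against -0.03 for all 12550 genes tested. Krt5, whose promoter drives the Cre, was at 3354 and 3319 CPM (-0.02) over the 5 clusters, which differ in their share of each library. Within clusters its ratio was -0.07 for cluster 4 and 0.26 for cluster 15, 0.49 for cluster 14, 0.50 for cluster 9 and, the highest of the 5, 1.25 for cluster 13 (1721 and 4080 CPM). Its partner Krt14 was higher over the 5 clusters (2282 and 5089 CPM, 1.16). Krt15, a basal type I keratin, was lower at 6024 and 1925 CPM (-1.65), most so in cluster 9 (-5.23). Krt18 (8.79 and 79.8 CPM, 3.18) and Krt8 (68.6 and 218.4 CPM, 1.67), the pair of simple epithelia, had most of their UMIs in cluster 14, and Krt75 went from 65 to 225 UMIs (2.66) with 59 and 199 of them in that cluster. Krt32 was lower, with 2742 and 153 UMIs (-3.30).

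Signals known to induce stress keratins in skin were read from lists of their genes. Of 11 genes for EGFR and its ligands, 3 were at least 2-fold higher and 1 lower, with a median of 0.42. Over all genes 10.3% were higher and 6.93% lower. In cluster 9 alone 4 of 6 tested were higher and 1 lower (median 2.39), against 12.3% and 18.0% of all genes, and none of 6 was in cluster 13. Epgn, an EGFR ligand, had 3 and 116 UMIs (6.14, 4.55 to 8.44), 93 of the 116 in cluster 9, and Ereg, another ligand, had 8 and 53 (3.59). The more abundant Hbegf, with 46.3 and 62.0 CPM (0.42), and the receptor gene Erbb3, with 40.5 and 43.8 CPM (0.11), differed little. Of 7 tested AP-1 subunits, transcription factors that bind keratin gene promoters, only Fosl1 passed 2-fold (15 and 28 UMIs, 1.76), where 10.3% of all genes did. Jund (535.1 and 615.0 CPM, 0.20), Jun (-0.11) and Fosl2 (0.47) did not. The clusters differed in this list. In cluster 9, 4 of 6 subunits were at least 2-fold higher (median 1.51), against 12.3% of all genes, and in cluster 14, 3 of 6, against 16.8%. None of 6 was higher in clusters 4 and 13, and 4 of 6 were lower in cluster 15, where 11.7% of all genes were. Of 11 genes of interleukin 17, interleukin 6 and STAT3 signalling, only Nfkbiz, an NF-kappaB cofactor, was at least 2-fold higher (43.7 and 91.3 CPM, 1.06). This count is near the 10.3% of all genes. By cluster, 4 of 9 genes of this list were higher and none lower in cluster 14, against 16.8% and 3.67% of all genes. In cluster 9 only 3 of 12 could be tested, with none higher and 1 lower. Cluster 13 had 1 of 11 higher, and clusters 4 and 15 had none. Il17rc was level (-0.05) and Il6ra lower (-0.72).

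Wounded keratinocytes are known to switch on other genes together with these keratins. Of the 12 tested wound-activated genes 6 were at least 2-fold higher and none lower, with a median of 1.62. Over all genes 10.3% were higher and 6.93% lower. S100a8 and S100a9, the calprotectin pair, had 168 and 57265 UMIs (log2 ratio 9.28) and 175 and 39231 UMIs (8.67). In cluster 9 this list had 6 of 7 genes higher and 1 lower (median 2.77), against 12.3% and 18.0% of all genes. None was lower in clusters 13 and 4, where 6 of 8 and 5 of 9 were higher, against 7.04% and 9.94% of all genes. Cluster 14 had 3 of 6 higher and 2 lower, against 16.8% and 3.67% of all genes. Cluster 15 had 3 of 4 higher and 1 lower, against 7.69% and 11.7%.

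NRF2 target genes, the known output of KEAP1 loss, had 12 of 14 members at least 2-fold higher and none lower, with a median of 1.94. Over all genes 10.3% were higher and 6.93% lower. Slc7a11, the cystine transporter, had 20 and 817 UMIs (6.22) and Srxn1, sulfiredoxin, 131 and 1108 (3.94), while Gstm1 was 734.7 and 2893 CPM (1.98) and Gsta4 1705 and 2602 CPM (0.61). Set beside the stress keratins by cluster, the NRF2 list gave the following. In cluster 4 the list had 11 of 14 members higher (median 1.67), against 9.94% of all genes. In cluster 9 it had 12 of 14 (3.55), against 12.3%. In cluster 13 it had 4 of 14 higher and 1 lower (0.72), where 7.04% of all genes were higher and 6.32% lower. The 1 lower gene of cluster 13 was Nqo1 (120.9 and 59.9 CPM, -1.01). Gstm1 (842.2 and 466.9 CPM, -0.85) was lower by less than 2-fold, though the list median lay above that of all genes (-0.03). All 4 stress keratins were higher there. Cluster 14 had 4 of 14 higher and 1 lower (0.28), against 16.8% and 3.67% of all genes. None of the 4 stress keratins passed 2-fold there. In cluster 15, 13 of 14 were higher and none lower (1.83), against 7.69% of all genes higher, and Krt6a and Krt17 were higher too.

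Another list held keratin partners and linkers, with junction proteins, Sfn and the transcription factor Trp63 among them. Of its 13 genes none was at least 2-fold higher and 1, Dst, was lower (567.8 and 187.3 CPM, -1.60). Over all genes 10.3% were higher and 6.93% lower, so the count of lower genes is near that share. Dst encodes a hemidesmosome linker. Dsp, desmoplakin, stood at 788.5 and 1102 CPM (0.48), Sfn, the 14-3-3 sigma protein that binds keratins, at 1784 and 2959 CPM (0.73), and Trp63, the basal transcription factor, at 212.8 and 117.7 CPM (-0.85). In cluster 9, 8 of 12 of these genes were at least 2-fold lower, where 18.0% of all genes were, and none was higher. Summed stress keratins were highest in that cluster in the Keap1 cKO library and lowest there in the control.

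Across single cells the members did not all move together. The Spearman correlation of Krt6a with Krt6b, each as a share of the cell's UMIs, was 0.78 over the 140 Keap1 cKO cells of cluster 9, 0.72 over the 61 of cluster 13 and 0.51 over the 93 of cluster 4. Krt6a with Krt17 gave 0.05, 0.07 and 0.17 in the same cells, and Krt16 with Krt17 gave 0.39, 0.49 and 0.36. Those cells share a library and its free RNA, and the counts of Krt16 and Krt17 are sparse. All 4 members were seen in 56 of the 140 cells of cluster 9, in 31 of 61 in cluster 13 and in 26 of 93 in cluster 4, and in no control cell of these clusters. In cluster 9, 109 of the 136 cells with Krt6a also held Krt16, and 61 held Krt17. The summed stress keratins had a correlation of -0.22 with the summed NRF2 targets in Keap1 cKO cells of cluster 9. It was 0.09 for cluster 13, 0.06 for cluster 4 and 0.49 over the 40 Keap1 cKO cells of cluster 14. In control cells it was 0.03, -0.33, 0.09 and 0.51 for clusters 9, 13, 4 and 14. With S100a8 the stress keratins gave 0.39, 0.27, 0.18 and 0.08 in Keap1 cKO cells of these 4 clusters, in the same order.

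Over the 9 sums of a cluster in a library with at least 10 cells, Krt6a and Krt16 had a Pearson correlation of 0.92 on log2(CPM + 1), Krt6a and Krt17 0.92, Krt16 and Krt17 0.88, Krt6a and Krt6b 0.87, Krt6b and Krt16 0.83, and Krt6b and Krt17 0.68. Among 9729 genes with at least 100 UMIs in these cells, those most like Krt6a were Cdk17 (0.95), Map7d1, Gk, Capza1 and Krt16. Those most like Krt6b were Pet100 (0.95), Gng5, Capza1, Il1rn and Prdx3. Krt16 was most like Urah (0.93), Cd3d, Krt6a, Wipi2 and Zfp938, and Krt17 most like Map7d1 (0.97), Wipi2, Acta1, Laptm5 and Uba1. Genes of other cell types, such as Cd3d of T cells and Laptm5 of leukocytes, appear in these lists, and the 9 points share depth and free RNA.

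Markers of T cells were also higher in the epithelial clusters of the Keap1 cKO library. The sum of the 5 T cell markers was 6.76 and 187.5 CPM in cluster 9, where Cd3e, Cd3g and Cd3d were at 0 in the control, 5.54 and 84.97 CPM in cluster 4, and 7.14 and 74.8 CPM in cluster 13. In cluster 13 the 5 fibroblast markers also summed to 264.3 and 1407 CPM and the basal ones to 4919 and 9397 CPM, while the fibroblast sum was 268.3 and 261.3 CPM in cluster 9 and 530.4 and 582.5 CPM in cluster 4. In red cells the sum was 4.70 and 38.9 CPM, with Cd3e at 0 in the control. The erythroid sum was 575.0 and 3139 CPM in cluster 9 and 660.5 and 3609 CPM in cluster 4, but 1069.5 and 506.1 CPM in cluster 13. The 5 dividing cell markers summed to 122.1 and 900.9 CPM in cluster 4. The sum of the 4 genes was also measured without mixed cells. The remaining 87 control and 63 Keap1 cKO cells of cluster 9 gave a log2 ratio of 5.26, against 6.52 with all cells. In cluster 4 only 6 and 11 cells remained, with a ratio of 1.72 against 2.51. For cluster 13 the part of these markers was not tested, as 5 and 3 cells remained.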

How the data were processed

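Esophagi without muscle were dispersed into single cells and sequenced with a 10x Genomics 3′ kit, per the labels' protocols. The submitters' processing notes name mm10, Seurat 4.0.2 and R 4.1.1, and Cell Ranger 6.0.1; the sources used here do not give annotation, filters or parameters. Values in the table deposited by the authors are the natural log of 1 plus UMIs scaled to 10000 per cell, as read from the values. They were turned back into counts: 100% of positive values were whole UMIs within 0.01. The planned use of counts was kept. Cluster numbers and cell types are the authors' deposited annotation. All 4853 cells (500 to 100520 UMIs) were kept, and no doublet caller was run. No replicate exists, so intervals cover counting error only: exact Poisson for levels, exact conditional binomial for ratios and Clopper-Pearson for shares, at 95%. Where a gene had 0 UMIs in a library, 3 counts for the whole group stood in as floor, also in list medians. A gene was tested for a 2-fold ratio with at least 20 UMIs over both libraries.

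The 4 genes, the lists and the alternatives were chosen with earlier results of these data known. The rule named the 4 members, Keap1, Krt5, the 2 most abundant genes and the 2 with the largest ratio of each list, and the 5 genes most like each member. Markers and cluster leaders are named as checks. Krt14, Krt13, Krt4 and Nqo1 by cluster and cells singled out for their UMIs were chosen after their values were seen. A leading gene has the highest ratio of its CPM plus 1 in a cluster to that in all other cells, with at least 100 UMIs. Alternatives were other scalings, means over cells, depth and mixed-cell filters, other thinning and other minimums. Calculations used Python 3.11.15, numpy 2.4.6, scipy 1.17.1, pandas 2.3.3 and matplotlib 3.10.9, and the ratio code was tested on simulated data.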

Additional observations from a re-analysis of the deposited data

Results flagged for a closer look

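Cluster 10, which the authors' deposited annotation also calls epithelial, lay outside the 5 clusters compared above, and the summed level of its 4 stress keratins was above the red cell CPM. Krt16 had 0 UMIs in its control cells. It had 170 control and 81 Keap1 cKO cells with median depths of 1178 and 809 UMIs. The 4 genes had 135 UMIs (390.2 CPM) in the control and 59 (735.9 CPM) in Keap1 cKO cells; the log2 ratio was 0.92 (0.45 to 1.37). Krt6a gave 105 and 35 of these UMIs. Per cell the values were 0.794 and 0.728 UMIs, against 0.129 and 1.23 in red cells, so the Keap1 cKO value was not above the red cell value on that scale.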

How the results depend on the processing

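No paired analysis was possible because there was 1 library per genotype and the labels give no replicate numbers; for the same reason no replicate could be left out. The log2 ratio of the 4 genes together kept its direction in clusters 4, 9, 13 and 15 under every alternative that gave a value. With each cell's own CPM averaged it was 2.28 in cluster 4, 5.95 in cluster 9, 3.81 in cluster 13 and 0.26 in cluster 14. Without mixed cells it was 1.72 in cluster 4, 5.26 in cluster 9 and 0.53 in cluster 14 (6 cells in each library); in clusters 13 and 15 too few cells were left for a value. With the 50 most abundant genes kept out of the total it was 2.42 in cluster 4, and it turned to -0.052 in cluster 14, where median-of-ratios scaling gave -0.17. Chosen after seeing the data, leaving out the cell with most stress keratin UMIs in each library gave 2.24 in cluster 4, 2.06 in cluster 15 and -0.28 in cluster 14. Subtracting the red cell CPM or leaving out shared barcodes changed no direction of these sums. Erythroid markers made up 936828 and 932761 CPM of red cells, which lowers their keratin CPM. The subtraction is therefore a weak check on free RNA. Krt6b in cluster 14 turned to -0.89 without mixed cells and to -1.21 without that cell, and Krt17 there to -0.015 with median-of-ratios scaling. The type I share over the 5 clusters (control, then Keap1 cKO) was 6.31% and 22.9% without mixed cells, 7.12% and 24.3% as a mean over cells with at least 10 stress keratin UMIs, and 11.9% and 37.9% with Krt6a alone as type II. The thinned share of cells was 28.6% and 81.2% at 1500 UMIs, and 5.97% and 58.8% when 2 UMIs were asked for. Of 144 values for single members, 136 kept their direction, and the rest were all in cluster 14. Krt16 there went from 0.14 to -0.18 with median-of-ratios scaling and to -0.05 without the 50 most abundant genes. It was -0.36 as a mean over cells, -1.22 without the cell with most stress keratin UMIs and -0.54 with the red cell CPM subtracted. The shallow cells of clusters 9 and 14 and the 7 Keap1 cKO cells of cluster 15 limit the precision of their values.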
